A study of Mus musculus with 30 samples.

Results

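Keratinocyte cornification genes are the genes that skin keratinocytes switch on as they flatten, die and become the cornified layer. 39 such genes form a named list, drawn up by their known roles and with no threshold on their values, though with earlier results of these data known. Their RNA was followed in mouse medullary thymic epithelial cells (mTECs). The 39 genes were looked up among 55011 genes in the count tables of mature mTECs (mTEChi) and among 35999 gene symbols in the tables of Aire-GFP+ mTECs, and all 39 were found in both. Of these, 37 passed the filter on low counts in each table. Lor and Dsc1 did not, and are given by their counts. By role the list holds 3 structural keratins, 10 cornified envelope precursors, 5 fused S100 proteins, 6 desmosome or corneodesmosome genes, 8 crosslinking enzymes, proteases and their inhibitors, and 7 other genes linked to late differentiation.

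In the outer epidermis, keratin filaments are bundled, and small proline-rich proteins, involucrin and loricrin are crosslinked by transglutaminases into an envelope that replaces the cell membrane. Kallikrein proteases later cut the corneodesmosomes so that dead cells are shed. mTECs transcribe many genes of peripheral tissues, in part under the transcriptional regulator Aire, which exposes developing T cells to those self-antigens. Some mTECs that have passed the Aire stage go on to a keratinocyte-like state with cornified bodies, the Hassall's corpuscles.

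All libraries came from thymuses of female C57BL/6J mice of 4 to 6 weeks and were made by Smart-seq2 from 1000 flow-sorted cells each, after magnetic depletion of CD45+ cells. Aire-GFP+ mTECs, in which a GFP reporter marks Aire transcription in both genotypes, gave 2 Aire-KO and 3 WT libraries. mTEChi came from 8 groups of 2 libraries. These were Aire-KO with PBS, WT with PBS, Aire-KO with spermidine (a polyamine), WT with spermidine, WT with topotecan (a topoisomerase I inhibitor), WT with its solvent DMSO, Foxn1-cre,Nfe2l2 fl/fl and Foxn1-cre,Nfe2l2+/+. Injections were intraperitoneal. Both Nfe2l2 groups carry Foxn1-cre, which is active in thymic epithelium, and so share its effects. The labels name neither doses nor separate animals, so p-values measure only the spread between these libraries. In bulk libraries, fewer cells of a type and less RNA per cell cannot be told apart.

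The Aire-GFP+ libraries held 6577151 to 12612775 estimated counts and the mTEChi libraries 2027205 to 5724045 counts. Each gene was tested with edgeR's quasi-likelihood test, and called at a Benjamini-Hochberg adjusted p below 0.05 over all genes tested. Levels are CPM (counts scaled to library size) after TMM scaling and fold changes are on the log2 scale with their SE. The targeted genes did not mark the genotypes by loss of their RNA. Aire stood at 1641 ± 188 CPM in Aire-KO and 1653 ± 44.1 CPM in WT Aire-GFP+ cells (SD, n = 2 and 3; edgeR adjusted p = 0.938). In mTEChi with PBS it stood at 4616 ± 650 CPM in Aire-KO and 1630 ± 12.5 CPM in WT (SD, n = 2 each; edgeR adjusted p = 3.41e-05). Nfe2l2 stood at 96.0 ± 13.3 CPM in Foxn1-cre,Nfe2l2 fl/fl and 91.1 ± 0.487 CPM in Foxn1-cre,Nfe2l2+/+ cells (SD, n = 2 each; edgeR adjusted p = 1). Counts over a whole gene do not show which exons a deletion removed, so these values check neither allele, and the groups are named as labelled. The 10 mTEC markers examined, Epcam, Aire and H2-Aa among them, were above 0 in every library. Their summed level was 20824 to 23702 CPM in Aire-KO and 11790 to 11896 CPM in WT Aire-GFP+ cells, and 18641 to 19933 CPM in Aire-KO and 10929 to 11364 CPM in WT mTEChi with PBS or spermidine. It was 7769 to 8722 CPM with topotecan, 9551 to 9708 CPM with DMSO, 15089 to 15539 CPM in Foxn1-cre,Nfe2l2 fl/fl and 14429 to 14767 CPM in Foxn1-cre,Nfe2l2+/+ cells. H2-Aa alone made up most of each sum, at 18567 ± 1780 CPM in Aire-KO and 8364 ± 81.8 CPM in WT Aire-GFP+ cells (SD, n = 2 and 3). Of the 10 markers, 3 rose and 2 fell in Aire-KO Aire-GFP+ cells, where 19.0% of all genes rose and 22.3% fell. In Aire-KO mTEChi averaged over PBS and spermidine, 6 rose and 1 fell, where 10.3% of all genes rose and 12.5% fell.

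The cornification genes spanned a wide range of levels. In WT Aire-GFP+ cells the median member stood at 9.69 TPM (a deposited unit scaled to transcript length), against 2.66 TPM for the median of 27003 genes above 0. 19 members were over 10 TPM and 5 under 1 TPM. S100a8 was the most abundant in WT cells, at 151 ± 59.8 TPM in Aire-KO and 1651 ± 304 TPM in WT cells (SD, n = 2 and 3). The keratinocyte markers Krt10, Ivl and Krtdap were detected in all 5 Aire-GFP+ libraries. In mTEChi, Krt10 and Krtdap had counts in all 16 libraries, and Ivl in all but the second DMSO and the second Aire-KO spermidine library. Members also varied more between libraries of a group than most genes did. Their median biological coefficient of variation was 0.412, against 0.257 over all tested genes, in mTEChi and 0.297 against 0.240 in Aire-GFP+ cells. In mTEChi it ran from 0.125 for Dsp, the desmosomal plakin, to 1.07 for Krt2.

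14 members lie on chromosome 3. 12 of these lie close together in the epidermal differentiation complex, a dense cluster of late epidermal genes, between Lor at chr3:92080271-92083142 and Tchh at chr3:93442330-93449077 (mm10, GENCODE M21). S100a8 at chr3:90668978-90670035 and S100a9 at chr3:90692632-90695721 lie outside that stretch, among S100 genes that are often counted as part of the same complex. Klk7 at chr7:43811294-43816359 and Klk5 at chr7:43841971-43851181 neighbour each other in the kallikrein locus. RefSeq promoters (GRCm38.p6, 250 bases before to 50 after the start) were matched for 28 of the 39 members, with 30 promoters among 32851 in the table. The AP-1 motif TGANTCA, searched on both strands, was in 9 of 30 member promoters (30.0%) and in 7.81% of all promoters. The motif TATAAA was in 13 of 30 (43.3%) and in 13.6% of all. The Grhl motif AACCGGTT was in 0 of 30 and in 0.146% of all, and the repeat CACACACA, which overlaps itself when longer, in 2 of 30 and in 4.09%. The longest alternating purine-pyrimidine run had a median of 7 bases in member promoters and of 7 in all. The 150 bases before the RefSeq start are shown for the markers Ivl and Krtdap, for Sprr1a, Sprr1b and Rptn from the complex, and for S100a8, Klk5 and Klk7, which were among the members lower in Aire-KO Aire-GFP+ cells. Capitals mark AP-1 and TATAAA matches, and a match is a description of the letters only.
Ivl, chr3:92573736-92573885, minus strand: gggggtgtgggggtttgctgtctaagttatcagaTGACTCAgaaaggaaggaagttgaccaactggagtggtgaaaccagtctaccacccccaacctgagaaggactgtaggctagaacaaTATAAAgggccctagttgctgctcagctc
Sprr1a, chr3:92485882-92486031, minus strand: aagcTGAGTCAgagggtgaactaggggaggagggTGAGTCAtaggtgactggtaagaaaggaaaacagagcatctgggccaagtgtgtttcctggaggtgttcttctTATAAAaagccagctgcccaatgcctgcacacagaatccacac
Sprr1b, chr3:92438780-92438929, minus strand: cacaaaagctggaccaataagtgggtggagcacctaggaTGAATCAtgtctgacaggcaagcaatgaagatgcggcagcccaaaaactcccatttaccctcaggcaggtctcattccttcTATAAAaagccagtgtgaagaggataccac
Rptn, chr3:93393549-93393698, plus strand: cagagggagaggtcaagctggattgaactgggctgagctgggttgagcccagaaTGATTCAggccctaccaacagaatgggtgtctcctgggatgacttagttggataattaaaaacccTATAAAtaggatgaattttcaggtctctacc
Krtdap, chr7:30787755-30787904, plus strand: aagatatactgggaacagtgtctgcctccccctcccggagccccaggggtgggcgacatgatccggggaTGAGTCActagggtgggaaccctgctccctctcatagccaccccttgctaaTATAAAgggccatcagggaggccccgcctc
S100a8, chr3:90668921-90669070, plus strand: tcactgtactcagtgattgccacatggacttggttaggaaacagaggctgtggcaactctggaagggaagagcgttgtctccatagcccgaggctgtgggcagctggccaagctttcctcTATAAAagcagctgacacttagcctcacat
Klk5, chr7:43842119-43842268, plus strand: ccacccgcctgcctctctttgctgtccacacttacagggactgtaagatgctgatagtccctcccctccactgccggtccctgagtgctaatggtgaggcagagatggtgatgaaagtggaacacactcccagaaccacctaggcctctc
Klk7, chr7:43811144-43811293, plus strand: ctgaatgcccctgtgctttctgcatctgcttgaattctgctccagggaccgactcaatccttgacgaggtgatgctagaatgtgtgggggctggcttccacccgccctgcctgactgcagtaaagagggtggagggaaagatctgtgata
In these windows Ivl, Sprr1a, Sprr1b, Rptn and Krtdap each hold an AP-1 match upstream of a TATAAA match, Sprr1a holds 2 AP-1 matches, S100a8 holds TATAAA alone, and Klk5 and Klk7 hold none of these motifs.

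In Aire-GFP+ cells, libraries labelled Aire-KO held less RNA of many cornification genes, and more of a few, than WT libraries. Of the 37 members tested, 17 fell and 5 rose in Aire-KO against WT cells, where 22.3% of all 17923 genes tested fell, 19.0% rose and 41.3% were called in either direction. The median member log2 fold change was -1.33, against -0.12 over all genes. The Aire-KO libraries lay wholly below the WT libraries for 22 members and wholly above for 7, where 34.6% and 29.3% of all genes did so. 14 of the 22 calls held in every alternative fit tried. The members that fell included envelope precursors, fused S100 genes, kallikreins, corneodesmosin and the S100a8 and S100a9 pair, and those that rose included 2 desmogleins.

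Among the envelope precursors, 5 of 9 tested fell and none rose. Sprr1a, a small proline-rich protein that transglutaminases crosslink, stood at 28.1 and 44.2 CPM in Aire-KO libraries, against 161, 188 and 197 CPM in WT libraries. Every Aire-KO library was below every WT library, by a log2 fold change of -2.33 ± 0.21 (SE; 5.02-fold lower, edgeR adjusted p = 0.000163). Its neighbour and paralog Sprr1b stood at 1.31 and 4.54 CPM in Aire-KO, against 23.4, 18 and 19 CPM in WT libraries. It too was lower without overlap, with a log2 fold change of -2.74 ± 0.46 (SE; 6.68-fold lower, edgeR adjusted p = 0.00253). Cnfn (cornifelin), another envelope constituent, stood at 0.119 and 0.663 CPM in Aire-KO and at 10.1, 7.4 and 7.09 CPM in WT libraries. This was 19.4-fold lower in Aire-KO (log2 -4.27 ± 0.66, SE; edgeR adjusted p = 0.00166). Sprr3 had 1 count over both Aire-KO libraries and 130 over the 3 WT libraries, a ratio after scaling of 84.6 with a 95% exact counting interval of 14.9 to 3365 (edgeR adjusted p = 0.00234). Sprr4 had 0 and 68 counts, so it was at least 14.7-fold lower in Aire-KO (edgeR adjusted p = 0.00542). The bound takes 3 counts over the group as the floor, and intervals and bounds cover counting error only. Lor (loricrin), not tested, likewise had 0 counts in Aire-KO and 25 in WT cells, at least 5.42-fold lower. Ivl (involucrin), an early envelope scaffold, was uneven within both genotypes, at 0.595 and 5.39 CPM in Aire-KO and 6.64, 14.8 and 2.74 CPM in WT libraries, and the ranges overlapped (edgeR adjusted p = 0.245). The cytolinker plakins did not pass the test. Ppl (periplakin) averaged 25.0 ± 0.522 CPM in Aire-KO and 34.4 ± 3.20 CPM in WT, and Evpl (envoplakin) 2.14 ± 0.344 CPM in Aire-KO and 2.65 ± 1.3 CPM in WT (SD, n = 2 and 3; edgeR adjusted p = 0.0553 and 0.705).

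**Figure D1:**
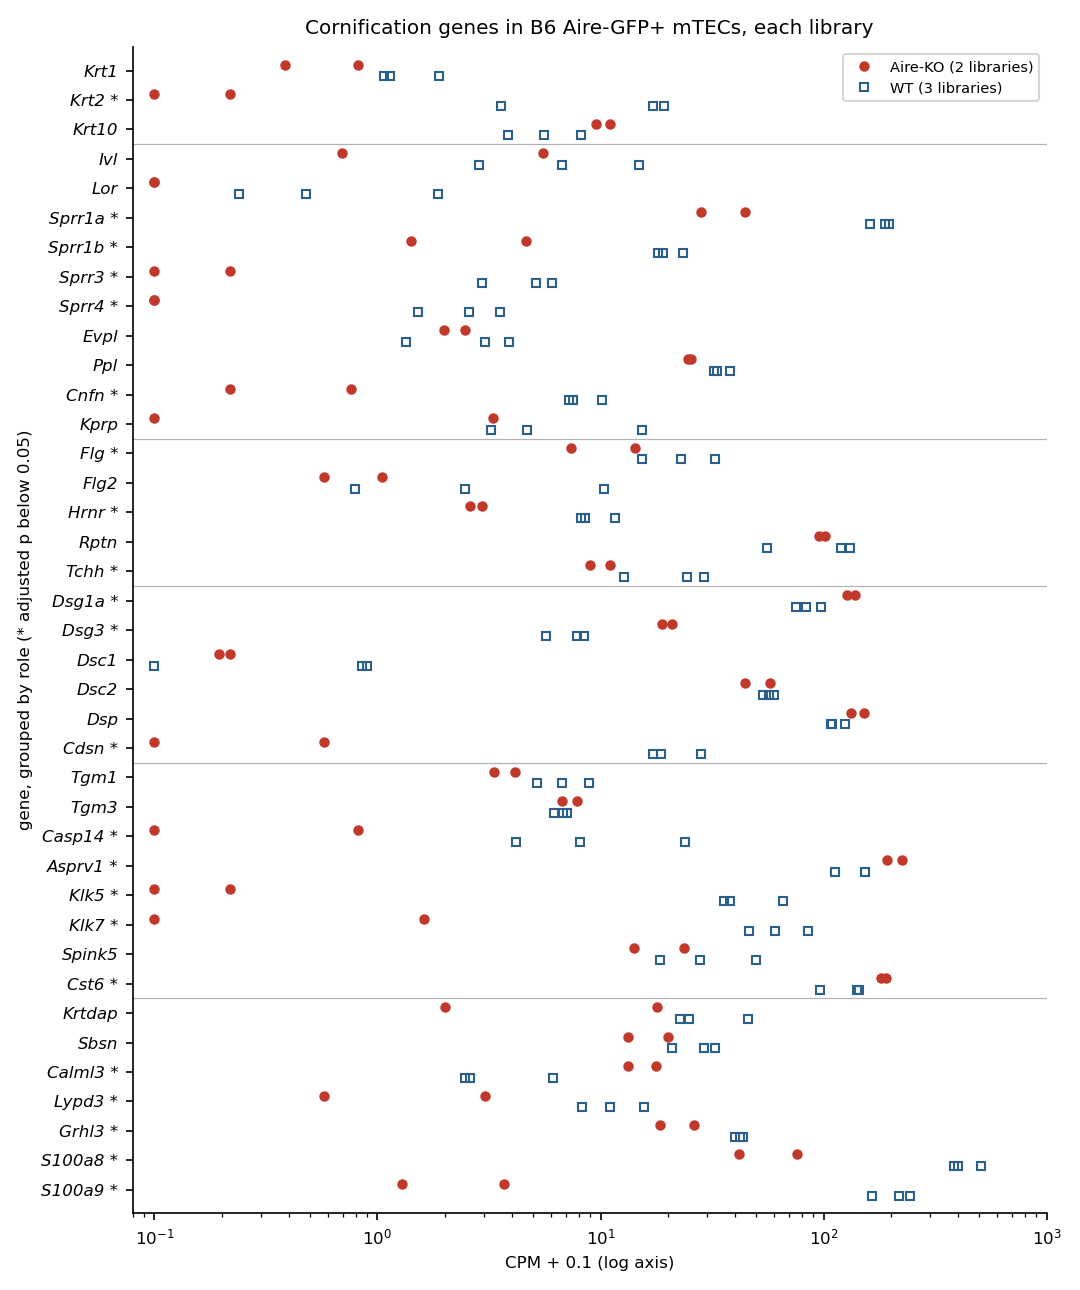
Level of each cornification gene in each Aire-GFP+ library, in CPM plus 0.1 on a log axis, with Aire-KO libraries as dots drawn above WT libraries as squares and genes grouped by role; an asterisk marks a gene called at an adjusted p below 0.05. The dots of Klk5, Klk7, Cdsn and S100a9 lie far to the left of their squares, and those of Dsg3 and Calml3 to the right.

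Of the structural keratins, only the suprabasal keratin Krt2 was called. It had 1 count over both Aire-KO libraries and 379 over the WT libraries, whose levels were 17.1, 19.2 and 3.5 CPM. The ratio was 247 with an exact counting interval of 44.0 to 9763 (edgeR adjusted p = 0.00192). Krt10, the keratin of early suprabasal keratinocytes, ran the other way at 9.40 and 11.0 CPM in Aire-KO, against 3.73, 8.11 and 5.48 CPM in WT libraries. Its ranges did not overlap, but the difference did not pass the test (log2 0.81 ± 0.38, SE; edgeR adjusted p = 0.126). Krt1, its partner, was near the limit of detection at 9 counts in Aire-KO and 35 in WT cells (edgeR adjusted p = 0.246).

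3 of the 5 fused S100 genes, whose large repetitive products fill keratohyalin granules, fell. Hrnr (hornerin) averaged 2.67 ± 0.241 CPM in Aire-KO and 9.33 ± 1.86 CPM in WT cells (SD, n = 2 and 3; 3.47-fold lower, edgeR adjusted p = 0.00687). Flg (filaggrin) averaged 10.7 ± 4.84 CPM in Aire-KO and 23.5 ± 8.72 CPM in WT, and Tchh (trichohyalin, best known from the hair follicle) 9.92 ± 1.45 CPM in Aire-KO and 22.0 ± 8.42 CPM in WT (edgeR adjusted p = 0.0458 and 0.0336). The Flg call was lost without the second WT, the third WT or the first Aire-KO library, and the Tchh call without the first WT, the second WT or either Aire-KO library (adjusted p up to 0.235 and 0.172). Rptn (repetin) did not differ beyond its spread, with 98.4 ± 4.41 CPM in Aire-KO and 102 ± 40.6 CPM in WT cells (edgeR adjusted p = 0.896).

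Adhesion genes moved in both directions. Cdsn (corneodesmosin), the adhesive protein of corneodesmosomes in the outermost layers, stood at 0.476 and 0 CPM in Aire-KO, against 17.0, 18.5 and 28.2 CPM in WT libraries. It was 93.7-fold lower in Aire-KO (log2 -6.55 ± 0.70, SE; edgeR adjusted p = 0.000319), on 4 against 631 counts. Desmogleins, the desmosomal cadherins, were higher instead. Dsg3, typical of lower layers, stood at 18.8 and 20.9 CPM in Aire-KO and 7.74, 8.37 and 5.57 CPM in WT libraries, with no overlap (log2 1.46 ± 0.27, SE; 2.75-fold higher, edgeR adjusted p = 0.00357). Dsg1a averaged 133 ± 7.49 CPM in Aire-KO and 85.3 ± 10.8 CPM in WT (1.56-fold higher, edgeR adjusted p = 0.00763), but 41.4% of its 31-base words also occur in Dsg1b or Dsg1c, so its value is uncertain. Its call was lost without the second Aire-KO library (edgeR adjusted p = 0.0547). Dsp (desmoplakin), which ties keratins to desmosomes, averaged 142 ± 13.6 CPM in Aire-KO and 114 ± 9.80 CPM in WT (edgeR adjusted p = 0.0778). Dsc2 (desmocollin) averaged 51.0 ± 9.37 CPM in Aire-KO and 56.8 ± 3.44 CPM in WT (edgeR adjusted p = 0.475). Dsc1, not tested, had 1 count in each Aire-KO library and 0, 9 and 8 counts in WT Aire-GFP+ libraries. It had 0 to 9 counts in the mTEChi libraries. Summed over the role, adhesion genes stood at 345 ± 31.6 CPM in Aire-KO and 285 ± 17.3 CPM in WT cells, whereas envelope precursors stood at 71.2 ± 14.2 CPM in Aire-KO and 271 ± 20.5 CPM in WT cells (SD, n = 2 and 3).

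The clearest differences among the enzymes were in the proteases of desquamation. Klk5, the kallikrein that starts the shedding cascade, stood at 0.119 and 0 CPM in Aire-KO, against 65.4, 35.8 and 37.9 CPM in WT libraries. That is 1 count against 1280, a ratio of 833 with an exact counting interval of 149 to 32912 (edgeR adjusted p = 5.86e-05). Klk7, which Klk5 activates, stood at 0 and 1.51 CPM in Aire-KO and 85.0, 46.3 and 60.4 CPM in WT libraries (log2 -6.25 ± 0.65, SE; 75.9-fold lower, edgeR adjusted p = 0.000289). Both kallikreins were near 0 in Aire-KO libraries, with no overlap. Their inhibitor Spink5 (LEKTI) had overlapping ranges, at 18.9 ± 6.80 CPM in Aire-KO and 32.0 ± 16.2 CPM in WT (edgeR adjusted p = 0.176). Casp14, the caspase of cornification that processes filaggrin, averaged 0.357 ± 0.505 CPM in Aire-KO and 12 ± 10.4 CPM in WT (edgeR adjusted p = 0.00915). Asprv1, a retroviral-like aspartic protease that also processes filaggrin, was higher, at 208 ± 23.0 CPM in Aire-KO and 140 ± 23.9 CPM in WT (1.49-fold, edgeR adjusted p = 0.0209). Cst6, a cystatin that inhibits cathepsins of the cornification pathway, was higher by a similar factor, at 185 ± 6.47 CPM in Aire-KO and 127 ± 27.0 CPM in WT (1.46-fold, edgeR adjusted p = 0.0378). Without the second Aire-KO library the Casp14 and Asprv1 calls were lost (adjusted p = 0.0552 and 0.135), and the Cst6 call was lost without either Aire-KO library (adjusted p up to 0.15). The transglutaminases Tgm1 and Tgm3, which crosslink the envelope, were not called (edgeR adjusted p = 0.108 and 0.793).

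Among the other differentiation genes, 4 fell and 1 rose. S100a9 stood at 1.19 and 3.6 CPM in Aire-KO, against 244, 164 and 217 CPM in WT libraries, an 83.3-fold difference (log2 -6.38 ± 0.38, SE; edgeR adjusted p = 3.1e-05). Its partner S100a8 stood at 41.5 and 75.7 CPM in Aire-KO and 385, 400 and 508 CPM in WT libraries (log2 -2.87 ± 0.26, SE; 7.33-fold lower, edgeR adjusted p = 0.000175). These 2 calcium-binding alarmins form calprotectin, are abundant in neutrophils and are induced in stressed keratinocytes. Lypd3, a surface protein of suprabasal cells, averaged 1.71 ± 1.74 CPM in Aire-KO and 11.6 ± 3.76 CPM in WT (6.56-fold lower, edgeR adjusted p = 0.0121). Grhl3, a transcription factor needed for barrier formation, averaged 22.3 ± 5.5 CPM in Aire-KO and 41.8 ± 1.73 CPM in WT (1.86-fold lower, edgeR adjusted p = 0.00721). Calml3, an epithelial calmodulin-like protein, rose 4.18-fold, at 15.4 ± 3.15 CPM in Aire-KO and 3.64 ± 2.09 CPM in WT (edgeR adjusted p = 0.00782). Without the first Aire-KO library the Grhl3 and Calml3 calls were just lost (adjusted p = 0.0510 and 0.0512). Krtdap and Sbsn, secreted products of differentiated keratinocytes, were lower in both Aire-KO libraries but did not pass the test (edgeR adjusted p = 0.0963 and 0.0664). With library totals in place of TMM the median log2 fold change of all genes moved to -0.51, and the calls of higher Dsg1a, Asprv1 and Cst6 were lost, leaving 22 lower members and 2 higher, Dsg3 and Calml3.

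In mTEChi of mice given PBS, 6 of 37 members were called in Aire-KO against WT, 5 lower and 1 higher, where 5.08% of all 18418 genes tested fell, 5.21% rose and 10.3% were called. The median member log2 fold change was -0.55, against -0.05 over all genes. Aire-KO libraries lay wholly below the WT libraries for 11 members and wholly above for 5, where 29.7% and 25.6% of all genes did so. S100a8 stood at 177 and 113 CPM in Aire-KO, against 870 and 1827 CPM in WT libraries, without overlap (log2 -3.22 ± 0.58, SE; 9.31-fold lower, edgeR adjusted p = 0.00274). S100a9 followed, at 183 and 82.9 CPM in Aire-KO and 784 and 1867 CPM in WT (log2 -3.32 ± 0.77, SE; edgeR adjusted p = 0.0140). Klk5 had 1 count in Aire-KO and 122 in WT, a ratio of 132 with an exact counting interval of 23.2 to 5253 (edgeR adjusted p = 0.00583). Casp14 had 2 counts in Aire-KO and 119 in WT, a ratio of 64.3 with an interval of 17.4 to 537 (edgeR adjusted p = 0.0273). Dsp was modestly lower, at 179 and 162 CPM in Aire-KO and 292 and 205 CPM in WT (log2 -0.55 ± 0.17, SE; edgeR adjusted p = 0.0492). Grhl3 was higher, at 67.3 and 72.9 CPM in Aire-KO and 33.5 and 41.2 CPM in WT (log2 0.91 ± 0.28, SE; edgeR adjusted p = 0.0492). The Grhl3 call was lost with DESeq2's size factors and with library totals (adjusted p up to 0.110), and under each of these scalings 6 members were lower and 0 higher. Calls over all genes tested moved when a library was left out. With the first or the second Aire-KO library left out, S100a8 was the only member still called. The Grhl3 call was lost without any 1 of these 4 libraries (adjusted p up to 0.255). Without the second WT library the S100a9 and Casp14 calls were lost, and without the first WT library the Dsp call (adjusted p up to 0.137, 0.192 and 0.455 over the libraries left out).

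With spermidine, 5 members fell and none rose in Aire-KO against WT mTEChi, where 4.34% of all genes fell, 4.77% rose and 9.11% were called. The median member log2 fold change was -0.83, against -0.04 over all genes. Aire-KO libraries lay wholly below the WT libraries for 17 members and wholly above for 4, where 29.4% and 26.8% of all genes did so. Tchh stood at 11.7 and 3.62 CPM in Aire-KO and 91.7 and 34.6 CPM in WT libraries (log2 -3.03 ± 0.53, SE; 8.2-fold lower, edgeR adjusted p = 0.00255). Sprr3 had 0 counts in Aire-KO and 38 in WT, at least 9.90-fold lower (edgeR adjusted p = 0.0242). Krt1 had 0 counts in Aire-KO and 43 in WT, at least 11.2-fold lower (edgeR adjusted p = 0.0452), but 40 of the 43 were in the second WT library. The Krt1 call was lost with the replicate number as a block and in a fit of this experiment alone (edgeR adjusted p up to 0.0628). Dsp averaged 191 ± 22.9 CPM in Aire-KO and 290 ± 12 CPM in WT (SD, n = 2 each; edgeR adjusted p = 0.0348). S100a8 stood at 356 and 62.6 CPM in Aire-KO, 2 libraries far apart, and at 995 and 547 CPM in WT (log2 -1.88 ± 0.55, SE; edgeR adjusted p = 0.0464). Leaving out 1 of these libraries leaves 1 in its group. Calls over all genes tested also moved when a library was left out. The count of members called changed with the library left out as well, so a moved count is not particular to the members. Each call other than that of Tchh was lost without some of these libraries. With a library left out, the log2 fold change ran from -4.12 to -2.16 for Tchh, from -3.62 to -1.11 for S100a8 and from -0.73 to -0.49 for Dsp.

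Averaged over PBS and spermidine, which reuses those 8 libraries, 9 members fell and 3 rose, where 12.5% of all genes fell, 10.3% rose and 22.8% were called. The median member log2 fold change was -0.73, against -0.05 over all genes. The Aire-KO range lay wholly below the WT range for 8 members and wholly above for 1, where 13.4% and 13.0% of all genes did so. The 9 included the calprotectin genes, Klk5, Casp14 and the granule genes Tchh and Rptn. S100a8 averaged 177 ± 128 CPM in Aire-KO and 1060 ± 545 CPM in WT, and S100a9 172 ± 158 CPM in Aire-KO and 1086 ± 570 CPM in WT (SD, n = 4 each; edgeR adjusted p = 0.00039 and 0.00254). Klk5 averaged 2.27 ± 4.32 CPM in Aire-KO, with 3 of the 4 libraries at 1 count or none and the first spermidine library at 8.74 CPM, and 22.7 ± 3.40 CPM in WT (edgeR adjusted p = 0.00152). Casp14 averaged 1.04 ± 1.02 CPM in Aire-KO and 19.4 ± 10.3 CPM in WT (edgeR adjusted p = 0.00741). Tchh averaged 9.75 ± 4.72 CPM in Aire-KO and 45.2 ± 31.2 CPM in WT, 4.36-fold lower (edgeR adjusted p = 0.000779). Rptn, which was not called in Aire-GFP+ cells, where WT libraries were far apart, averaged 195 ± 51.4 CPM in Aire-KO and 373 ± 65.1 CPM in WT mTEChi. It was 1.91-fold lower in Aire-KO mTEChi with no overlap (edgeR adjusted p = 0.00575). Dsp averaged 181 ± 18.8 CPM in Aire-KO and 270 ± 43.5 CPM in WT (edgeR adjusted p = 0.0028), and Lypd3 10.4 ± 8.03 CPM in Aire-KO and 40.1 ± 18.4 CPM in WT (edgeR adjusted p = 0.0131). Krt1 had 8 counts in Aire-KO and 70 in WT (edgeR adjusted p = 0.0194). The Krt1 call was lost without any of 6 of the 8 libraries and the Lypd3 call without any of 3 (adjusted p up to 0.154 and 0.0704).

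The 3 members that rose in averaged Aire-KO mTEChi were Calml3, Dsg1a and Grhl3. Calml3 averaged 30.3 ± 2.58 CPM in Aire-KO and 15.3 ± 4.63 CPM in WT, 1.99-fold higher with no overlap (SD, n = 4 each; edgeR adjusted p = 0.0197). Dsg1a averaged 172 ± 22.3 CPM in Aire-KO and 126 ± 22.7 CPM in WT (edgeR adjusted p = 0.0291). Grhl3 averaged 62.2 ± 10.9 CPM in Aire-KO and 41.6 ± 7.90 CPM in WT (edgeR adjusted p = 0.0469). The Grhl3 call was lost without any of the 8 libraries, and with DESeq2's size factors, which gave 2 higher and 10 lower members. With library totals 1 member, Calml3, stayed higher and 11 were lower. Leaving out 1 library ended the Dsg1a call in 6 of 8 cases and the Calml3 call in 4 of 8 (adjusted p up to 0.143 and 0.0915). No envelope precursor was called in the average. Sprr1a, 5.02-fold lower in Aire-KO Aire-GFP+ cells, averaged 109 ± 64.3 CPM in Aire-KO and 90.6 ± 12.7 CPM in WT mTEChi, and Klk7 18 ± 15.5 CPM in Aire-KO and 34.4 ± 20.2 CPM in WT (edgeR adjusted p = 0.671 and 0.353). The Aire-GFP+ and mTEChi tables were counted with different tools and fitted apart, so the difference between these cell populations was not tested.

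**Figure D2:**
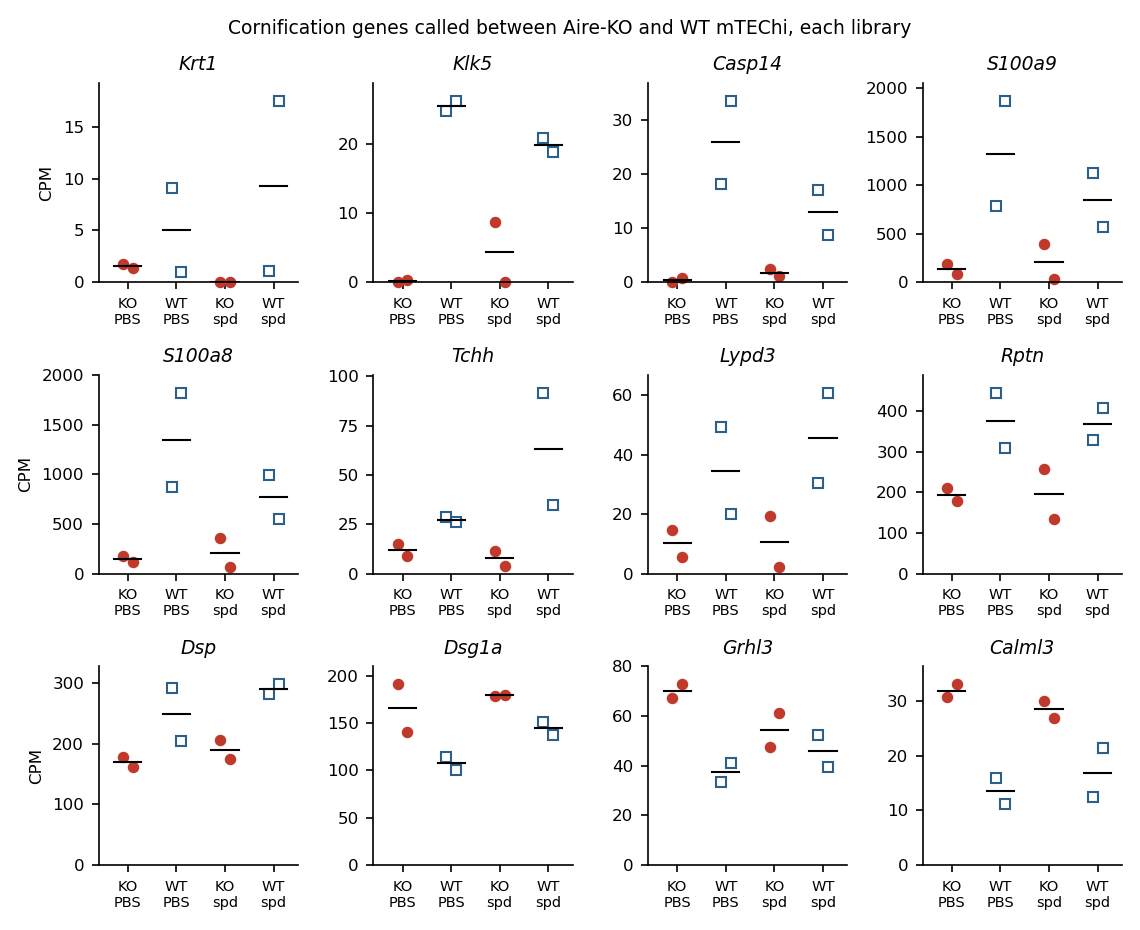
Level of 12 cornification genes in each mTEChi library, in CPM, for Aire-KO and WT with PBS and Aire-KO and WT with spermidine; dots are libraries and bars are means of 2. S100a8, S100a9 and Tchh are lower in every Aire-KO library than in any WT library, and Calml3 is higher in every one.

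**Figure D3:**
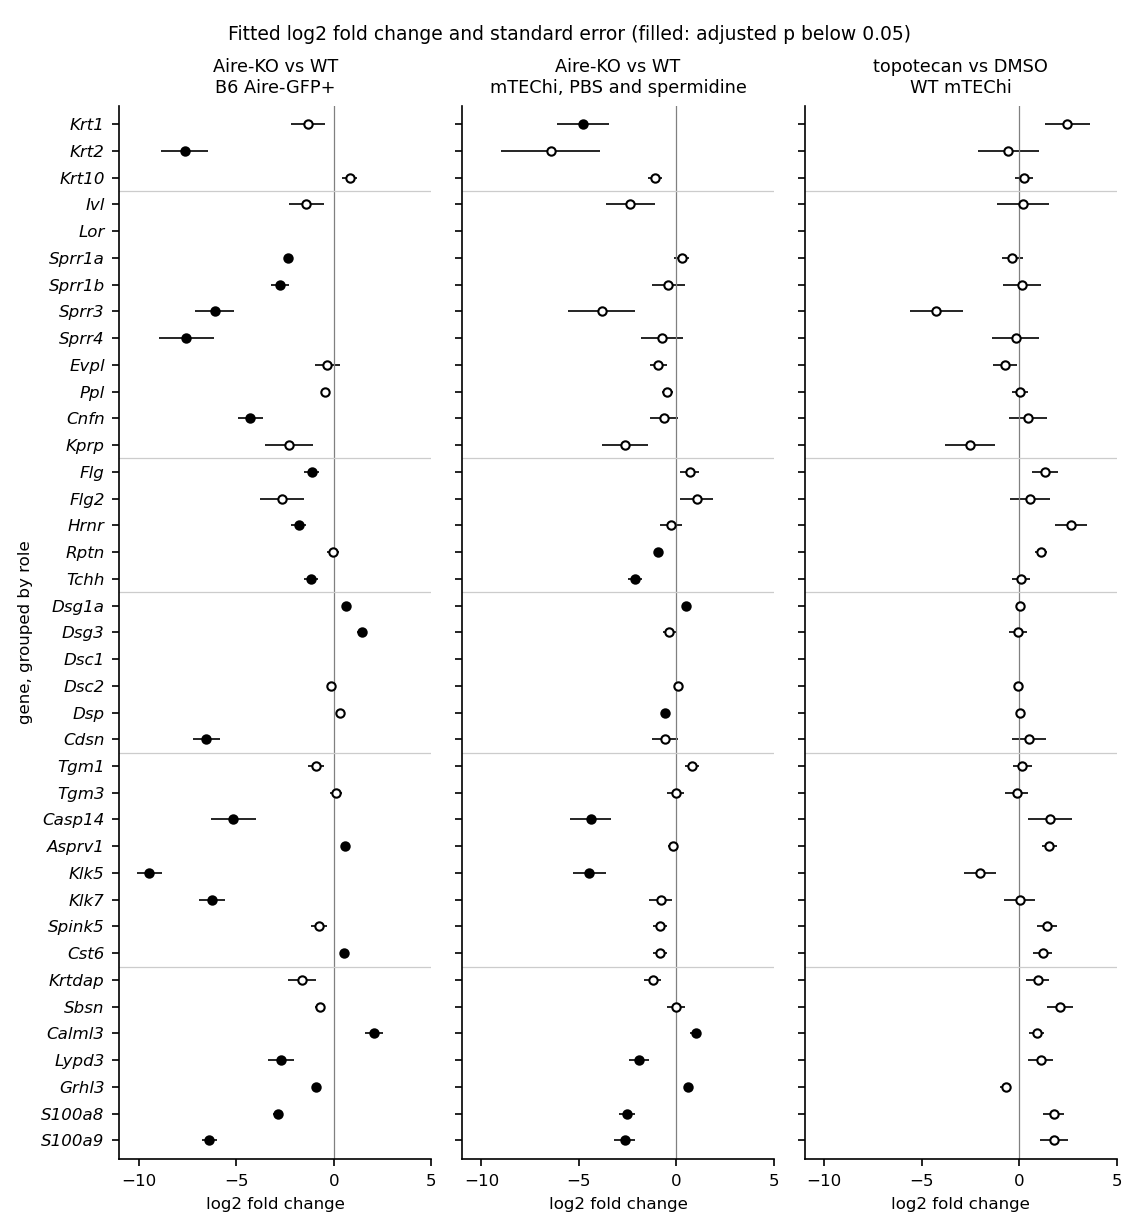
Log2 fold change of each tested cornification gene with its SE, for Aire-KO against WT in Aire-GFP+ cells, for Aire-KO against WT in mTEChi averaged over PBS and spermidine, and for topotecan against DMSO in WT mTEChi; filled points have an adjusted p below 0.05. Sprr1a and Sprr1b are filled in Aire-GFP+ cells and open in mTEChi, and no topotecan point is filled.

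The summed level of the list depended on S100a8 and S100a9. Over all 39 members it was 1101 ± 136 CPM in Aire-KO and 1927 ± 160 CPM in WT Aire-GFP+ cells (SD, n = 2 and 3), and 1987 ± 659 CPM in Aire-KO and 4348 ± 814 CPM in WT mTEChi with PBS or spermidine (SD, n = 4 each). Without S100a8 and S100a9 it was 1040 ± 110 CPM in Aire-KO and 1287 ± 104 CPM in WT Aire-GFP+ cells, and 1638 ± 391 CPM in Aire-KO and 2202 ± 438 CPM in WT mTEChi with PBS or spermidine. The smaller difference that remained lay across ranges that did not overlap in Aire-GFP+ cells and did overlap in mTEChi. Neutrophils and other myeloid cells are CD45+, and CD45+ cells were depleted before sorting. Ptprc, which encodes CD45, was still detected in every library. It stood at 2.02 and 0.852 CPM in Aire-KO and 5.81, 5.64 and 6.43 CPM in WT Aire-GFP+ libraries (edgeR adjusted p = 0.0160). In mTEChi with PBS or spermidine it stood at 24.9 to 65.8 CPM in Aire-KO and 35.4 to 70.1 CPM in WT, with overlap. Most neutrophil and myeloid markers moved with S100a8 and S100a9. The 13 markers other than Lyz2, among them Ly6g, Csf3r, Ltf and Camp, summed to 25.0 to 28.2 CPM in Aire-KO and 419 to 539 CPM in WT Aire-GFP+ cells. Lyz2, the lysozyme of macrophages and neutrophils, ran the other way, at 2126 and 2135 CPM in Aire-KO and 956, 889 and 1332 CPM in WT Aire-GFP+ libraries (log2 1.01 ± 0.16, SE; edgeR adjusted p = 0.00191). With Lyz2 included, the sum of all 14 markers was therefore higher in Aire-KO, at 2154 to 2160 CPM in Aire-KO and 1309 to 1840 CPM in WT Aire-GFP+ cells. In mTEChi with PBS or spermidine the 13 markers summed to 310 to 1639 CPM in Aire-KO and 2634 to 4611 CPM in WT, and all 14 to 1279 to 3038 CPM in Aire-KO and 3715 to 5788 CPM in WT. Other mTEChi controls stood lower than these WT libraries, with the 13 markers at 1348 to 2302 CPM with DMSO and 380 to 445 CPM in Foxn1-cre,Nfe2l2+/+ cells, the last of these inside the Aire-KO range. In Aire-GFP+ cells 9 of 13 tested markers of the full list of 14 fell and 1, Lyz2, rose in Aire-KO, and in averaged mTEChi 8 of 14 fell. For comparison, 22.3% of all genes fell and 19.0% rose in Aire-GFP+ cells, and 12.5% fell in averaged mTEChi. Ly6g, Ngp, Retnlg, Fpr1 and Cebpe were at 0 in the first Aire-KO Aire-GFP+ library and Elane, Fpr1 and Cebpe in the second.

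Markers of some other cell types moved with genotype too, while those of others were called less often than all genes. Of the dendritic cell and macrophage markers, 5 of 8 fell and none rose in Aire-KO Aire-GFP+ cells, with a sum of 26.6 to 31.8 CPM in Aire-KO and 87.7 to 151 CPM in WT. In averaged mTEChi 0 of these 8 were called by edgeR, where 22.8% of all genes were. At an unadjusted p below 0.05 stood 3 of the 8, and 6467 of all 18418 genes. Of the fibroblast markers, 2 of 6 fell and 2 rose in Aire-GFP+ cells, with a sum of 264 to 344 CPM in Aire-KO and 87.6 to 136 CPM in WT, and 3 of 7 fell in averaged mTEChi. Dcn (decorin), the proteoglycan of connective tissue, stood at 313 and 233 CPM in Aire-KO and 49.2, 44.7 and 41.0 CPM in WT Aire-GFP+ libraries (log2 2.60 ± 0.15, SE; edgeR adjusted p = 3.1e-05). Dcn made up most of the fibroblast sum in Aire-KO Aire-GFP+ cells. Col1a1 ran the other way, at 0.331 ± 0.468 CPM in Aire-KO and 32.0 ± 16.3 CPM in WT (SD, n = 2 and 3; edgeR adjusted p = 0.00064). Of the 6 tested there, 4 had a negative log2 fold change and 2 a positive one. Thymocyte markers fell for 3 of 9 in Aire-GFP+ cells, 33.3% called where 41.3% of all genes were, and for 1 of 9 in averaged mTEChi. Of 5 erythroid markers tested, 0 were called in either population. Of the endothelial markers, 1 of 3 rose in Aire-GFP+ cells and 0 of 4 were called in averaged mTEChi. In Aire-GFP+ cells B cell markers gave 1 higher and 1 lower of 4, and cortical TEC markers 1 higher and 2 lower of 5. In averaged mTEChi 0 of 4 B cell markers were called, and cortical TEC markers gave 1 higher and 1 lower of 5. The part of any such cells or transcripts in the S100a8 and S100a9 differences, or in those of the other members, was not tested. Leaving the pair out, 15 of 35 members fell and 5 rose in Aire-KO Aire-GFP+ cells, where 22.3% of all genes fell, 19.0% rose and 41.3% were called.

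**Figure D4:**
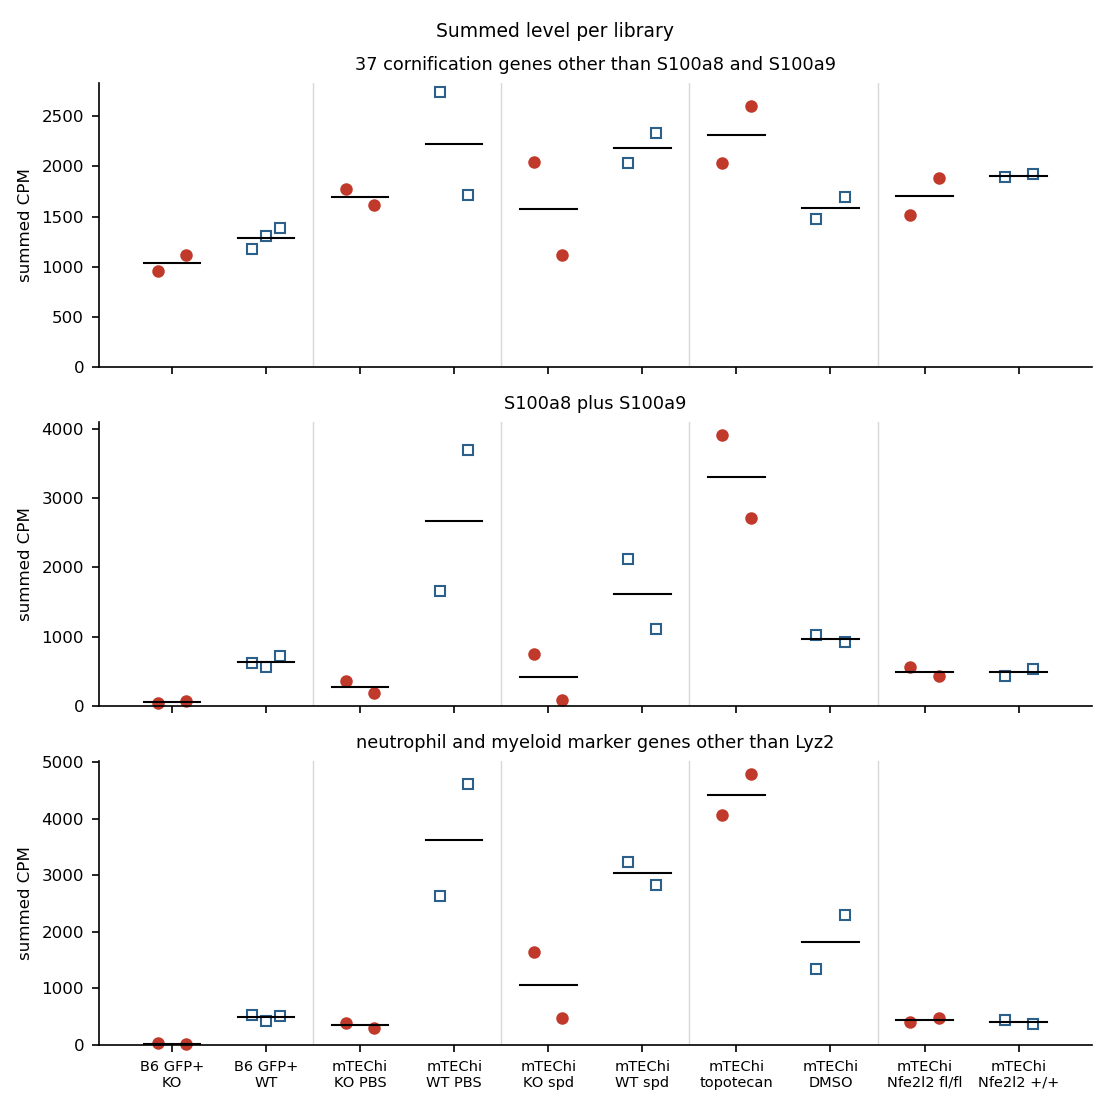
Summed CPM per library in 10 groups, for the 37 cornification genes other than S100a8 and S100a9, for S100a8 plus S100a9, and for 13 neutrophil and myeloid markers other than Lyz2; each dot is a library. Myeloid markers run from 25.0 to 28.2 CPM in Aire-KO Aire-GFP+ cells and from 4067 to 4787 CPM with topotecan, and S100a8 plus S100a9 follow the same order at those ends.

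Other epidermal genes, from lists compiled for comparison, were also called in both directions. These counts stand against 22.3% of all genes lower, 19.0% higher and 41.3% called in Aire-GFP+ cells, and 12.5% lower, 10.3% higher and 22.8% called in averaged mTEChi. Of 28 late envelope genes outside the 39 that were tested in Aire-GFP+ cells, 17 fell and none rose in Aire-KO. Fam25c averaged 0.189 ± 0.268 CPM in Aire-KO and 59.4 ± 18.6 CPM in WT, and Sprr2i was at 0 CPM in both Aire-KO libraries and at 25.5 ± 2.66 CPM in WT. In averaged mTEChi 9 of 18 such genes fell, among them Prr9 with 0.411 ± 0.294 CPM in Aire-KO and 17.8 ± 7.72 CPM in WT. Keratins of mucosal and other stratified epithelia fell for 8 of 12 in Aire-GFP+ cells and 5 of 12 in mTEChi, with none higher. Krt4, a mucosal keratin, averaged 0.974 ± 0.306 CPM in Aire-KO and 39.6 ± 13.2 CPM in WT Aire-GFP+ cells, and 0.995 ± 0.876 CPM in Aire-KO and 29.0 ± 18.5 CPM in WT mTEChi. Other kallikreins and protease inhibitors split into 9 lower and 4 higher of 19 in Aire-GFP+ cells, and 6 lower and 3 higher of 18 in mTEChi. Klk14 averaged 0.0473 ± 0.0669 CPM in Aire-KO and 31.9 ± 3.70 CPM in WT Aire-GFP+ cells, while Cstb, a cytosolic cystatin, averaged 1597 ± 177 CPM in Aire-KO and 583 ± 20.7 CPM in WT. Of 17 lipid barrier genes, 4 fell and 2 rose in Aire-GFP+ cells, 35.3% called and below the share of all genes, and 6 fell in mTEChi. Alox12b, a lipoxygenase of the lipid envelope, averaged 6.03 ± 0.965 CPM in Aire-KO and 35.1 ± 20.6 CPM in WT mTEChi. Of other junction genes, 4 of 11 fell and 3 rose in Aire-GFP+ cells and 4 fell and 2 rose in mTEChi. Among epidermal transcription regulators, 5 of 22 fell and 1 rose in Aire-GFP+ cells, 27.3% called and likewise below the share of all genes, and 4 of 21 fell and 2 rose in mTEChi, where Klf4 averaged 19.3 ± 4.30 CPM in Aire-KO and 38.8 ± 6.58 CPM in WT. Basal and simple keratins gave 3 of 7 lower and 2 higher in both populations, with the basal keratin Krt5 at 355 ± 48.2 CPM in Aire-KO and 739 ± 46.2 CPM in WT mTEChi.

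Between Lor and Tchh on chromosome 3, 7 of 11 tested members fell and none rose in Aire-KO Aire-GFP+ cells, and 2 of 11 fell in averaged mTEChi. Among all genes 41.3% were called in Aire-GFP+ cells and 22.8% in averaged mTEChi, so the 18.2% of this stretch called in mTEChi was below the share of all genes. Among the members elsewhere, S100a8 and S100a9 included, 10 of 26 fell and 5 rose in Aire-GFP+ cells, and 7 fell and 3 rose in mTEChi. Neighbouring genes differed in their calls. Sprr1a, Sprr1b and Sprr3 fell in Aire-GFP+ cells and Ivl did not pass the test, while Klk5 fell in both populations and the adjacent Klk7 was called in Aire-GFP+ cells and not in averaged mTEChi, a difference that was not tested.

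Topotecan left no member past the threshold. By edgeR 0 of 37 were called, with 12 at an unadjusted p below 0.05, as were 2566 of all 18418 genes. By DESeq2 3 were called, Rptn, Hrnr and Asprv1, all higher, and the share of all genes in that fit is not given here. Among all genes 0.195% rose, 0.456% fell and 0.652% were called by edgeR. The topotecan libraries lay wholly above the DMSO libraries for 12 tested members and wholly below for 5, where 19.9% and 19.8% of all genes did so, and the median member log2 fold change was 0.20, against 0.01 over all genes. Asprv1 stood at 212 and 365 CPM with topotecan and 122 and 76.8 CPM with DMSO (log2 1.54 ± 0.39, SE; edgeR adjusted p = 0.0863). Rptn stood at 367 and 224 CPM with topotecan and 138 and 133 CPM with DMSO (log2 1.12 ± 0.30, SE; edgeR adjusted p = 0.106). Hrnr stood at 11.6 and 42.7 CPM with topotecan and 1.72 and 6.73 CPM with DMSO, and Sbsn (suprabasin) at 47.7 and 90.5 CPM with topotecan and 25.5 and 6.73 CPM with DMSO (edgeR adjusted p = 0.161 each). Each of these 4 genes was higher in both topotecan libraries than in either DMSO library. Klk5 pointed the other way, at 0.994 and 9.87 CPM with topotecan and 27.5 and 16.3 CPM with DMSO (edgeR adjusted p = 0.297), as did Sprr3, with 1 count with topotecan and 27 with DMSO (edgeR adjusted p = 0.177). Aire itself stood at 730 ± 126 CPM with topotecan and 1340 ± 227 CPM with DMSO (SD, n = 2 each; edgeR adjusted p = 0.0125). This call was lost in a fit of the topotecan and DMSO libraries alone (edgeR adjusted p = 0.288) and without the first DMSO library.

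S100a8 averaged 1683 ± 483 CPM with topotecan and 493 ± 0.563 CPM with DMSO, and S100a9 1626 ± 361 CPM with topotecan and 478 ± 74.5 CPM with DMSO (SD, n = 2 each; edgeR adjusted p = 0.151 and 0.289). The 13 myeloid markers other than Lyz2 summed to 4067 to 4787 CPM with topotecan and 1348 to 2302 CPM with DMSO. Ptprc stood at 155 and 145 CPM with topotecan and 54.8 and 107 CPM with DMSO, and was not called. The part of CD45+ cells in the S100a8 and S100a9 values was not tested. The members other than this pair summed to 2034 to 2600 CPM with topotecan and 1481 to 1693 CPM with DMSO. The fused S100 genes summed to 382 ± 102 CPM with topotecan and 175 ± 9.87 CPM with DMSO, and the enzymes and inhibitors to 740 ± 344 CPM with topotecan and 323 ± 35.2 CPM with DMSO. Envelope precursors overlapped, at 182 ± 50.1 CPM with topotecan and 211 ± 47.2 CPM with DMSO. None of the other epidermal lists held a called gene with topotecan.

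**Figure D5:**
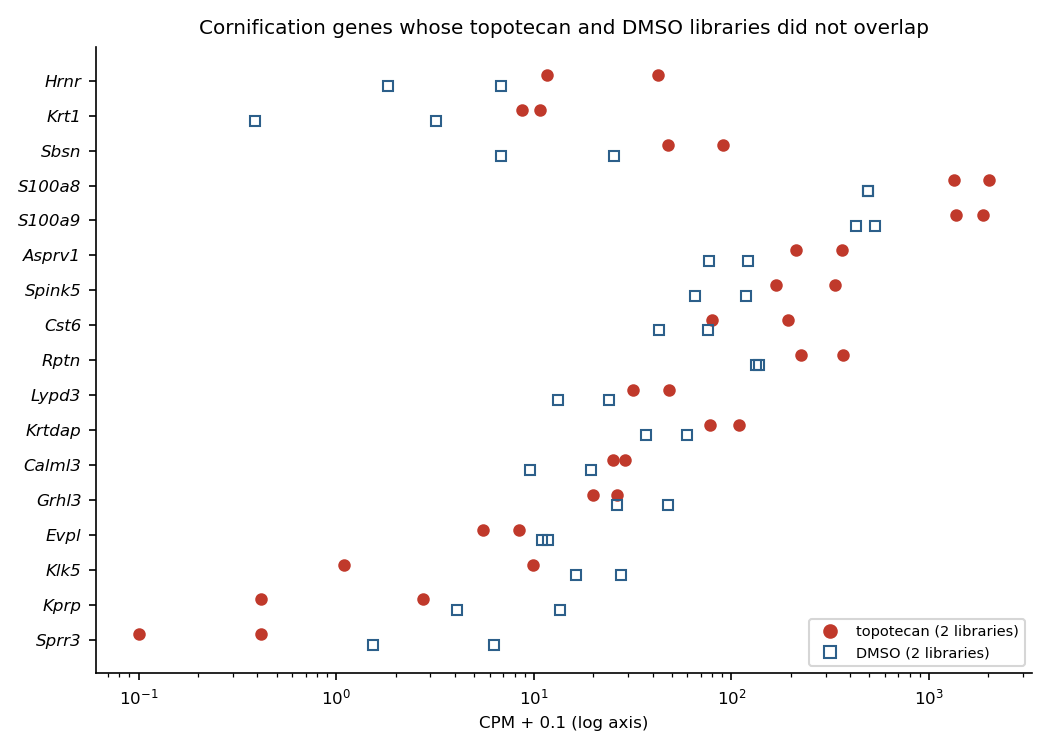
Level of the 17 cornification genes whose topotecan and DMSO libraries did not overlap, in CPM, with each library as a point. 12 genes are higher with topotecan and 5 lower, and none passed the test by edgeR.

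No member was called between spermidine and PBS in either genotype. In WT mTEChi, edgeR called 0 members and 0% of all genes, and DESeq2 called 0 members. At an unadjusted p below 0.05 stood 6 of 37 members and 709 of all 18418 genes. Sprr3 had 38 counts with spermidine and 1 with PBS, Tchh averaged 63.2 ± 40.4 CPM with spermidine and 27.3 ± 1.56 CPM with PBS, and Flg 7.54 ± 3.85 CPM with spermidine and 24.6 ± 14.2 CPM with PBS (SD, n = 2 each; edgeR adjusted p = 0.999 for all). In Aire-KO mTEChi, edgeR called 0 members and 0.00543% of all genes, and DESeq2 called 0 members. Only 1 member, Klk5, was at an unadjusted p below 0.05, as were 759 of all 18418 genes. Klk5 had 18 counts with spermidine, all in the first library, and 1 with PBS. The difference of the spermidine effects between genotypes was called for 0 members by edgeR and by DESeq2, and for 0% of all genes. Here 4 members, and 619 of all 18418 genes, were at an unadjusted p below 0.05. These comparisons share their PBS and spermidine libraries with the Aire-KO comparisons above.

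Nfe2l2 encodes the oxidative stress regulator NRF2. Between Foxn1-cre,Nfe2l2 fl/fl and Foxn1-cre,Nfe2l2+/+ mTEChi, edgeR called 0 members and 0% of all genes, and DESeq2 called 0 members. At an unadjusted p below 0.05 stood 973 of all 18418 genes and 1 member, Spink5. It averaged 115 ± 15.7 CPM in Foxn1-cre,Nfe2l2 fl/fl and 246 ± 46.3 CPM in Foxn1-cre,Nfe2l2+/+ cells (SD, n = 2 each; log2 -1.10 ± 0.49, SE; edgeR adjusted p = 0.922). The summed level of the list was 2076 and 2316 CPM in Foxn1-cre,Nfe2l2 fl/fl and 2332 and 2458 CPM in Foxn1-cre,Nfe2l2+/+ libraries. S100a8 averaged 351 ± 45.8 CPM in Foxn1-cre,Nfe2l2 fl/fl and 370 ± 28.1 CPM in Foxn1-cre,Nfe2l2+/+ cells, and the libraries overlapped.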

How the data were processed

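RNA was measured in sorted mTECs with Smart-seq2 libraries, which carry no molecular identifiers and no strand. The mTEChi files hold whole-number counts per gene, deposited by the authors. The Aire-GFP+ files hold estimated counts and TPM per transcript, as deposited by the authors. The submitters' processing notes name STAR, TopHat2 2.1.1, SAMtools 1.3.1, featureCounts, kallisto and mm10. Which step used which tool is otherwise not given in the sources used here.

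Estimated counts were summed to gene symbols through GENCODE M21, which matched 116816 of 118489 transcripts (unmatched, 0.541 to 0.578% of counts), and rounded. The 5 Aire-GFP+ libraries and the 16 mTEChi libraries were fitted apart, each with edgeR 4.0.16 in R 4.3.3 (filterByExpr, TMM, glmQLFTest, all groups of a table in 1 fit, calls at a Benjamini-Hochberg adjusted p below 0.05). CPM are relative to the counts of tested genes after TMM. The test code was checked on simulated data. Alternatives were DESeq2 1.42.0, its size factors in edgeR, library totals, no low-count filter, a replicate block, fits of 1 experiment alone, length offsets and leaving out each library. Full values are given for up to 12 called members in each comparison, ordered by adjusted p. The members and lists were chosen with earlier results of these data known. 6 NOD libraries and 3 F1 libraries were not analysed here. Depth ranged from 2027205 to 12612775 counts per library, so ratios on few counts carry exact 95% counting intervals.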

Additional observations from a re-analysis of the deposited data

Results flagged for a closer look

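11 pairs of comparisons of a member had every Aire-KO library on opposite sides of the WT libraries in Aire-GFP+ cells and in mTEChi. Among all genes, 34.6% lay wholly below and 29.3% above in Aire-GFP+ cells. The shares were 29.7% and 25.6% in mTEChi with PBS, and 29.4% and 26.8% with spermidine. Genes on opposite sides were not counted over all genes, so the 11 pairs are not read as a result about the members. Krt10 and Dsp enter the 11 both with PBS and with spermidine. S100a8, S100a9, Klk5, Klk7, Casp14, Tchh and Lypd3 lay below in both Aire-GFP+ cells and mTEChi with PBS, and Dsg1a and Calml3 above in both. The difference between the cell populations was not tested, because the tables were counted and fitted apart. Between Aire-GFP+ cells and mTEChi with PBS, the log2 fold change in Aire-KO was -2.33 and 0.60 for Sprr1a, -2.74 and 0.56 for Sprr1b, and -0.90 and 0.91 for Grhl3. The opposite order held for Krt10, at 0.81 in Aire-GFP+ cells and -1.10 in mTEChi, for Dsp, at 0.31 in Aire-GFP+ cells and -0.55 in mTEChi, and for Asprv1, at 0.58 and -0.34. Between Aire-GFP+ cells and mTEChi with spermidine it was -1.14 and 1.76 for Flg, -0.92 and 1.03 for Tgm1, 0.81 and -1.10 for Krt10, 1.46 and -1.20 for Dsg3, and 0.31 and -0.61 for Dsp. Of these values, those of Sprr1a, Sprr1b, Grhl3, Asprv1, Flg and Dsg3 in Aire-GFP+ cells, of Grhl3 and Dsp in mTEChi with PBS and of Dsp in mTEChi with spermidine passed the test, and the others did not. Between spermidine and PBS, libraries also lay apart in opposite directions for Dsg3, with a log2 fold change of -0.59 in Aire-KO and 1.07 in WT mTEChi, and for Casp14, at 2.09 in Aire-KO, on 7 counts with spermidine and 2 with PBS, and -0.99 in WT. The difference of these effects between genotypes did not pass the test for either gene (edgeR adjusted p = 0.9999 for both, unadjusted 0.0257 for Dsg3 and 0.195 for Casp14). No cause was tested.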

How the results depend on the processing

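Counts of called members held within 1.5-fold under DESeq2's size factors, library totals, DESeq2 (except topotecan, 3 in place of 0) and fits of 1 experiment alone (9 in place of 6 for Aire-KO with PBS). Without the low-count filter they were 17 for Aire-KO with PBS, 17 with spermidine, 19 averaged, 7 and 3 for spermidine in WT and Aire-KO, 3 for their difference, 13 for topotecan and 1 for Nfe2l2. In Aire-GFP+ cells they were 29. Calls over all genes without the filter are not given here, so these counts are not read as a result about the members. Leaving out a library gave 18 to 22 calls in Aire-GFP+ cells, 1 to 7 with PBS, 1 to 8 with spermidine, 8 to 13 averaged and 0 to 2 for topotecan, where S100a8 and Asprv1 were called without either Aire-KO spermidine library. In the other comparisons it gave 0. Calls over all genes moved with the library left out as well in the Aire-KO and topotecan comparisons, so a moved count is not particular to the members. The log2 ratio of the summed level in Aire-GFP+ cells was -0.81, and -1.21 with library totals. Leaving out a library gave -1.65 to -0.44 for Aire-KO with spermidine, -0.71 to 0.50 for spermidine in Aire-KO and 1.05 to 1.21 for topotecan. Aire in Aire-GFP+ cells had a log2 fold change of -0.01, of 0.40 with a length offset, and of -0.12 to 0.12 when a library was left out, and Nfe2l2 had 0.07, and -0.0688 to 0.21 when a library was left out. The cause was not tested. Same-numbered libraries showed no shared deviation over all tested genes (correlations -0.01 to 0.05), and they were not treated as pairs. With so few libraries in a group, this does not exclude a shared origin. The replicate block gave 24 calls in Aire-GFP+ cells, 5 with PBS, 4 with spermidine, 12 averaged and 0 elsewhere. Depth limits members with few counts, such as Lor and Dsc1.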
